A study of Homo sapiens with 15 samples.

Results

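The basement membrane genes of an oral squamous carcinoma line were compared between cells labelled CYGB+ and cells labelled NCE. They were 5 laminin chain genes (LAMA3, LAMA5, LAMB1, LAMB3 and LAMC1), 2 nidogens (NID1 and NID2), perlecan (HSPG2) and nephronectin (NPNT). The probes were all noncontrol probes of the array whose RefSeq accession belonged to one of these 9 genes, which gave 9 of the 19483 genes with such a probe and 12 of 42405 probes, 4 of them for HSPG2 and 1 for every other gene. The genes were chosen by family, with their green-channel signals in NCE and CYGB+ already known, so their differences between these groups are given as a description with no test.

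PE/CA-PJ41 is an immortalised line from a human oral squamous cell carcinoma. CYGB+ cells carried the human cytoglobin cDNA on the pCMV6-Neo plasmid, NCE (non-cytoglobin expressing) cells are labelled as carrying an empty vector, and the stable clones were picked in G418 and kept for 24 hours in supplemented medium before RNA extraction. Parts of the study's text call the control cells untransfected, so whether NCE cells carried a vector is not settled here. The methods name 1 clone as the CYGB+ line of the array, so the transgene and the clone cannot be told apart. RNA was taken on 3 occasions, which gave 3 biological replicates a group, and each was hybridised repeatedly, to 3 arrays for NCE and to 2 arrays for CYGB+, 15 arrays in all. No label states that the replicates were separate cultures, so p-values measure only the spread between these extracts.

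A laminin is a cross-shaped trimer of one alpha, one beta and one gamma chain, secreted by epithelial cells and assembled into a sheet beneath them. Nidogens and the heparan sulfate proteoglycan perlecan tie this sheet to the collagen IV network, and integrins on the basal cell surface bind the alpha chain. The LAMA3 and LAMB3 chains belong to the laminin that anchors squamous epithelium through hemidesmosomes. Nephronectin is a secreted matrix protein that binds the integrin of the ITGA8 and ITGB1 chains.

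The scanner called 48.0% to 56.8% of probes well above background on each array. Of the NCE arrays, 8 lay on one slide and 1 (replicate 1, array 3) lay on the other slide beside all 6 CYGB+ arrays, so differences are also given with the slide as a block and within the second slide, where a single NCE array stands for its group. The first array of CYGB+ replicate 1 stood apart, with a median Spearman correlation of 0.89 with the other arrays against 0.96 to 0.98 for the other 14. It had 1574 probes over 4-fold above the median of the other arrays of its group. The first arrays of NCE replicates 1 and 2 had 963 and 900 such probes, and the other NCE arrays had 116 to 603. All 13 squamous epithelial markers examined were well above background on all 15 arrays, and 1 of them, KRT16, was lower in CYGB+ (limma, adjusted p = 0.032). No array was above background for 4 of 5 endothelial and 2 of 5 leukocyte markers. The remaining endothelial marker, CDH5, was above background on 6 of 9 NCE and 5 of 6 CYGB+ arrays. The leukocyte markers CD68 and CD14 were above background on all 15 arrays, and PTPRC on 1 NCE and 2 CYGB+ arrays. Of 9 fibroblast markers, COL1A2 and FAP were above background on every array and 5 on none, and the log2 of their summed signal was 10.95 to 11.07 in NCE and 11.01 to 11.68 in CYGB+. Of these, COL1A2 fell by 2.53 on the log2 scale in CYGB+ (limma, adjusted p = 0.0022), while FAP differed by 0.62 ± 0.21 (adjusted p = 0.12) and COL1A1 by 0.23 ± 0.39 (adjusted p = 0.74). The part of these markers in any result was not tested. The probe of the transgene, CYGB, read 12.85, 13.16 and 12.96 in NCE and 12.37, 13.42 and 13.01 in CYGB+, so the groups overlapped (limma, adjusted p = 0.92). The CYGB probe was well above background on all 9 NCE arrays, while the study describes the parent line as not expressing cytoglobin. The source of that signal was not tested. Whether this probe lies within the transfected cDNA is not known here, so it does not check the labels. NCE and CYGB+ below mean the arrays so labelled.

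The promoters of 4 members are shown because NPNT had the largest positive difference between the groups, LAMA3 and HSPG2 the largest negative ones, and LAMB3 encodes the partner chain of LAMA3. Each is 300 bases of RefSeq sequence on build GRCh38.p14, 250 before the start of transcription and 50 after it, printed 5′ to 3′ on the gene's own strand. Capitals mark GGGCGG, the GC box, on either strand (so also CCGCCC) in NPNT and HSPG2, and TGACTCA, the AP-1 element, on either strand (so also TGAGTCA) in LAMA3 and LAMB3. LAMB3 has 3 promoter entries, of which the one holding TGACTCA is shown.
NPNT, chr4:105895221-105895520, plus strand: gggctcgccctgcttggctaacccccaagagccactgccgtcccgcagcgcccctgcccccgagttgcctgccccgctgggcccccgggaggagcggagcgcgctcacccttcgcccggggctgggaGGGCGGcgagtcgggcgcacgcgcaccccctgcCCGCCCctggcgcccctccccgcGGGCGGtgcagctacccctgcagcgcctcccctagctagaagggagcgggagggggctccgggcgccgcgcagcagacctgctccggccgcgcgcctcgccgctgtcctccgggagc
LAMA3, chr18:23872770-23873069, plus strand: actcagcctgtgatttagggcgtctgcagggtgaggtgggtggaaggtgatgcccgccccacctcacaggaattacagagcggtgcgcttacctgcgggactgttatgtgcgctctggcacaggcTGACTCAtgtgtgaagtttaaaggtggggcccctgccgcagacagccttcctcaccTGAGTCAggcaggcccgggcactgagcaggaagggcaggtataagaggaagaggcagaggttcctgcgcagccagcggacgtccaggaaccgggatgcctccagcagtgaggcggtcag
LAMB3, chr1:209651325-209651624, minus strand: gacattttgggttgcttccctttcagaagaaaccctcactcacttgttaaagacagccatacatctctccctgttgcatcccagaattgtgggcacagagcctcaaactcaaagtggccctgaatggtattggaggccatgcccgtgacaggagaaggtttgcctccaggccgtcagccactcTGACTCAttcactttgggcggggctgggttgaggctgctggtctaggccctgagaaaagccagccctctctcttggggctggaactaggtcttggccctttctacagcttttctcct
HSPG2, chr1:21937261-21937560, minus strand: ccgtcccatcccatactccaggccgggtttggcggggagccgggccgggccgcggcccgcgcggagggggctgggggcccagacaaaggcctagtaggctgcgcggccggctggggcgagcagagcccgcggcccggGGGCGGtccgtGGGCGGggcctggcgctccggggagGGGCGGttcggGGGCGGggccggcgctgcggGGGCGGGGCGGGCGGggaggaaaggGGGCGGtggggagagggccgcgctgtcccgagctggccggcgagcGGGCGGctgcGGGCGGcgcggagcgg
The NPNT promoter held 3 GC boxes and 36 CG steps, and that of HSPG2 held 10 GC boxes, some overlapping, and 44 CG steps. The LAMA3 promoter held 2 AP-1 elements, 1 GC box and 13 CG steps, and the LAMB3 entry 1 of each motif and 3 CG steps. Over all 35116 promoters of this length, 45.0% held a GC box and 4.95% an AP-1 element, with a median of 14 CG steps. All 11 promoter entries of the 9 genes held a GC box and 2 of the 11 an AP-1 element. A match in these letters is a description of the sequence, not a binding site. The entries were picked by gene name. Whether each starts the transcript that its gene's probe is named for was not checked, also for LAMA3.

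Both alpha chain genes had a lower mean in CYGB+ than in NCE, with overlapping replicates for LAMA5. Signals are the green-channel processed signal on a log2 scale after quantile normalization, and each replicate is the mean of its arrays. The share of all genes whose replicates do not overlap between the groups was not counted. Where such separation is given, here and below, it is therefore a description, not a trait of these genes. For scale, 5905 of the 22142 tested probes had an unadjusted limma p under 0.05. LAMA3, the alpha chain of the hemidesmosomal laminin, read 14.66, 15.14 and 15.12 in NCE replicates 1 to 3 and 14.03, 14.41 and 14.62 in CYGB+ replicates 1 to 3. Each CYGB+ replicate lay below each NCE replicate, narrowly at the nearest pair, while single arrays overlapped (lowest NCE array 14.55, highest CYGB+ array 14.70). The LAMA3 difference, CYGB+ minus NCE, was -0.62 ± 0.22 (SE, n = 3 a group), which is 1.54-fold lower in CYGB+. It was -0.30 ± 0.25 with the slide as a block and -0.20 within the second slide. In both groups replicate 1 was the lowest for LAMA3.

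LAMA5, the alpha chain of a widespread laminin of adult epithelia, read 10.07, 9.76 and 9.53 in NCE and 9.26, 9.78 and 9.12 in CYGB+. CYGB+ replicate 2 lay above 2 of the NCE replicates, so the groups overlapped. The difference was -0.40 ± 0.23 (SE), and repeat arrays of one extract differed by a pooled SD of 0.43. With the slide as a block it was -0.62 ± 0.46 and within the second slide -0.73. Without the first array of CYGB+ replicate 1, the array that stood apart, it was -0.20 ± 0.23.

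LAMB1, the beta chain that pairs with LAMA5 and LAMC1, read 12.94, 13.04 and 13.08 in NCE and 12.62, 12.61 and 12.63 in CYGB+. All CYGB+ replicates lay below all NCE replicates, and the replicates of CYGB+ agreed within an SD of 0.015. The 2 arrays of CYGB+ replicate 1, however, lay at 12.90 and 12.35. Single arrays overlapped narrowly (lowest NCE array 12.89, highest CYGB+ array 12.90). The LAMB1 difference was -0.40 ± 0.14 (SE), or 1.32-fold lower in CYGB+, and it stayed negative with the slide as a block (-0.32 ± 0.21), within the second slide (-0.30) and with scaling to the 75th percentile (-0.22 ± 0.17).

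LAMB3, the beta chain of the hemidesmosomal laminin, read 16.87, 17.09 and 17.00 in NCE and 16.88, 17.23 and 17.26 in CYGB+. CYGB+ replicate 1 lay within the NCE range and the other two lay above it. The LAMB3 difference of 0.14 ± 0.17 (SE) was within its error and changed sign with the slide as a block (-0.08 ± 0.26).

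LAMC1, the gamma chain shared by most laminins, read 10.72, 10.48 and 10.47 in NCE and 11.08, 10.73 and 10.36 in CYGB+. The CYGB+ replicates lay both above and below the NCE replicates. The LAMC1 difference was 0.17 ± 0.21 (SE), but -0.09 ± 0.30 with the slide as a block, -0.14 within the second slide and -0.01 ± 0.18 without CYGB+ replicate 1.

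Of the linkers, HSPG2 was measured and the nidogens were not. HSPG2 read 12.16, 11.86 and 12.00 in NCE and 11.52, 11.54 and 11.29 in CYGB+ by its bright probe. All CYGB+ replicates lay below all NCE replicates, and so did single arrays, with the lowest NCE array at 11.81 and the highest CYGB+ array at 11.65. The HSPG2 difference was -0.56 ± 0.16 (SE), or 1.47-fold lower in CYGB+, with -0.69 ± 0.18 for the slide as a block and -0.74 within the second slide. Its other 3 probes were well above background on 2, 2 and 1 of the 15 arrays, and a mean over all 4 probes gave -0.01, in which the dim probes count equally.

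NID1 was not well above background on any of the 15 arrays, where it read 2.19 to 2.73 in NCE and 2.21 to 3.56 in CYGB+. NID2 was above background on 1 array, the first of NCE replicate 3, at 5.13, and read between 2.11 and 2.52 on the other 14. The lowest signals called well above background lay between 3.74 and 4.96 depending on the array, so for both nidogens only a bound is known and no fold is given.

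**Figure D1:**
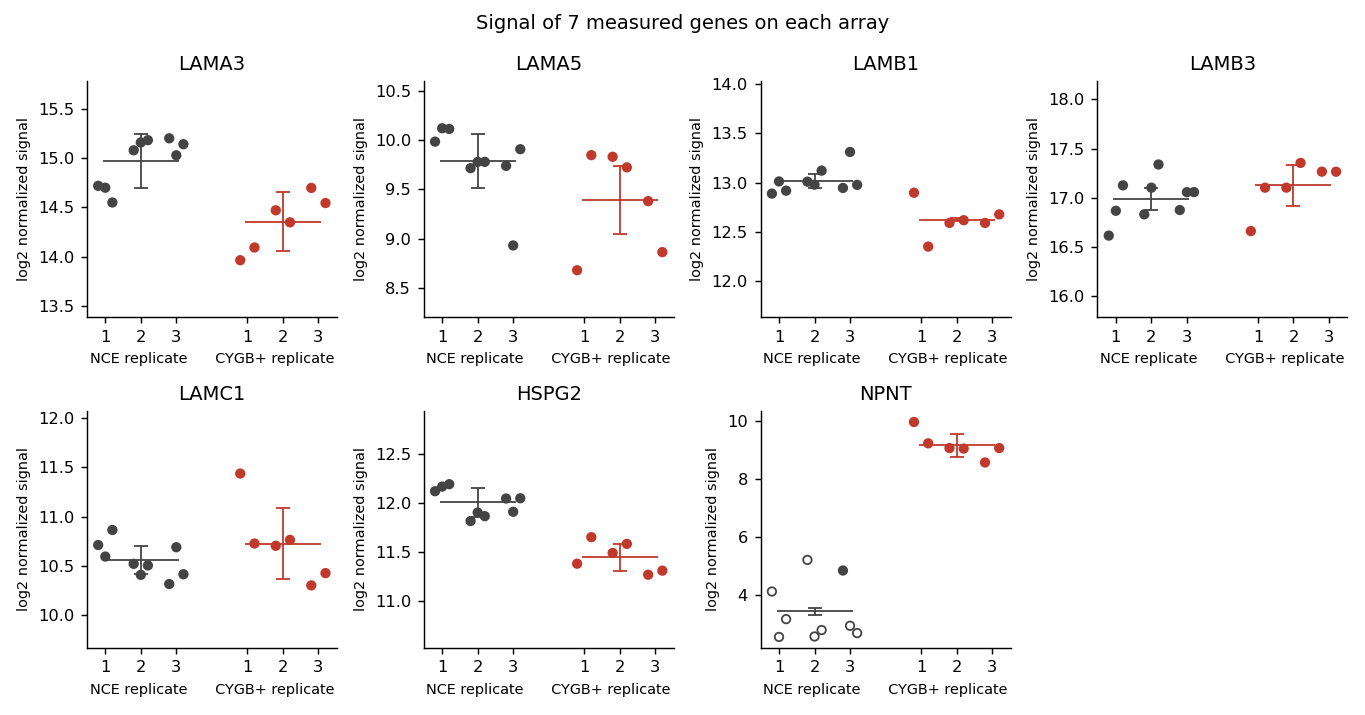
Log2 normalized green-channel signal of each array (points) by group and biological replicate, for the 7 members that were measured, with the mean and SD of the 3 replicates of each group (long and short bars). Filled points were well above background and open points were not. By replicate, LAMA3, LAMB1 and HSPG2 lie lower in CYGB+, but single arrays of LAMA3 and LAMB1 overlap between the groups. NPNT lies at 2.56 to 5.22 on NCE arrays and 8.58 to 9.98 on CYGB+ arrays.

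NPNT had by far the largest difference among the members. It read 3.29, 3.53 and 3.50 in NCE and 9.61, 9.07 and 8.83 in CYGB+. The groups were wide apart, and so were single arrays, of which the highest NCE array read 5.22 and the lowest CYGB+ array 8.58. The probe was well above background on 1 of 9 NCE arrays (the first of replicate 3, at 4.85) and on 6 of 6 CYGB+ arrays. The difference was 5.73 ± 0.23 (SE), and with NCE arrays below background set no lower than the lowest signal called well above background, NPNT was at least 21.0-fold higher in CYGB+. It was 5.95 ± 0.97 with the slide as a block and 5.99 within the second slide, but 2.23 ± 0.15 when the raw spot signal was background-corrected by normexp with an offset of 50. That offset raises dim signals, and the direction was the same. The bound on the fold therefore holds for the normalized processed signal only, and not for normexp.

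The NCE signal of NPNT split by array rather than by replicate. The first array of each NCE replicate read 4.13, 5.22 and 4.85, and the other 6 NCE arrays read 2.56 to 3.17. In the red channel of the same spots, the first arrays read 8.88, 8.51 and 8.77 on the log2 scale of the processed signal without normalization, and the other 6 NCE arrays 2.04 to 3.57. On the CYGB+ arrays the red channel read 9.28 to 10.52. The red channel was therefore high for NPNT on all 6 CYGB+ arrays and on the 3 first NCE arrays. The labels give the green dye, cyanine 3, for every sample and do not say what the red channel held, while the methods assign cyanine 5 to control and cyanine 3 to CYGB+ cells. What the red channel has to do with the green NCE signal was not tested. Without the first array of each NCE replicate the NPNT difference was 6.43 ± 0.23 (SE). Averaging the arrays of a replicate hides this split, and single arrays fitted without the slide gave 5.73 ± 0.53.

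**Figure D2:**
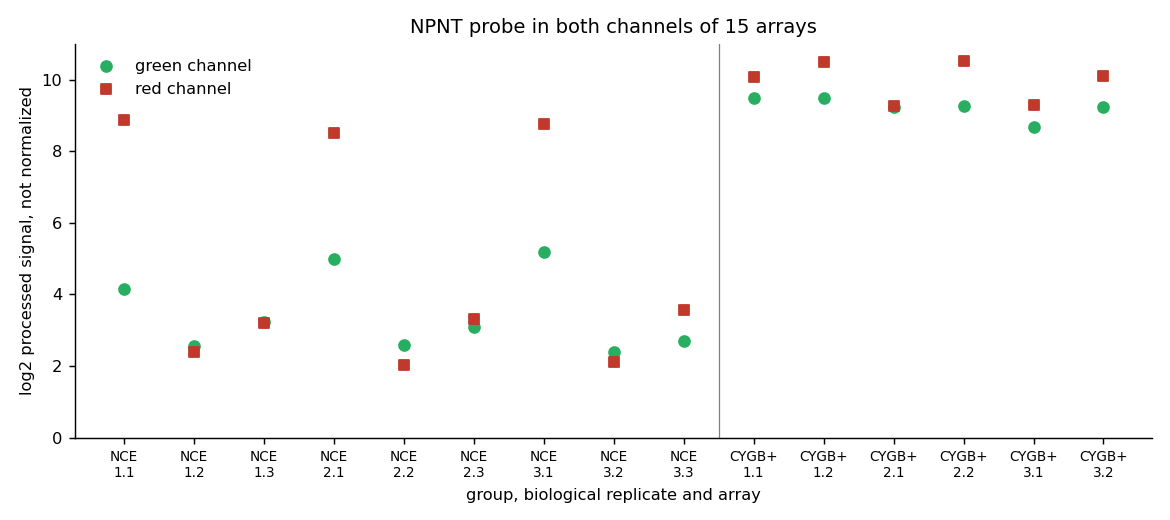
Log2 processed signal of the NPNT probe in the green (circles) and red (squares) channels of each array, not normalized between arrays, labelled by group, biological replicate and array. The red signal is 8.51 to 8.88 on the first array of each NCE replicate and 2.04 to 3.57 on the other 6 NCE arrays.

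Of the 9 genes, 7 passed the filter on low signal (well above background on at least 6 of 15 arrays), NPNT through its CYGB+ arrays alone. No test is given for the 7. Over all genes tested, each by its brightest probe, 8.93% passed, 4.37% higher and 4.56% lower in CYGB+. LAMA3, LAMA5, LAMB1 and HSPG2 were negative under every setting examined, as in the plot of differences under 6 ways of processing. Without the first array of CYGB+ replicate 1 the differences of LAMA3, LAMB1, LAMB3, LAMC1, HSPG2 and NPNT were -0.60, -0.49, 0.21, 0.05, -0.51 and 5.60.

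**Figure D3:**
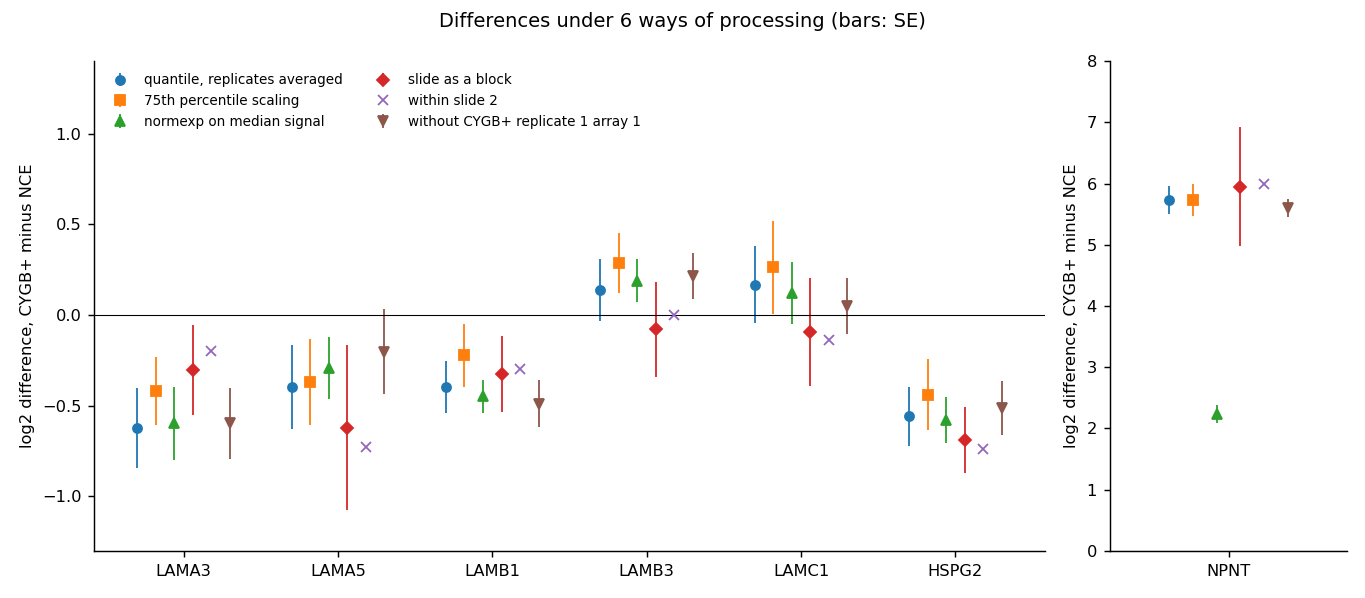
Log2 difference, CYGB+ minus NCE, for the 7 measured members under 6 ways of processing, with SE bars except within slide 2, where NCE is a single array. LAMB3 and LAMC1 change sign between settings, and NPNT ranges from 2.23 with normexp to 5.99 within slide 2.

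Other laminin chains and the partners of the members were read from 5 lists, tested across all probes with limma. Over all genes tested 8.93% passed, 4.37% higher and 4.56% lower, and the list counts are a description with no set test. Among 6 other laminin chains, 3 were tested, 1 rose and none fell. The riser was LAMA1, the alpha chain of embryonic basement membranes, which read 8.71, 8.80 and 8.73 in NCE and 9.60, 10.00 and 10.38 in CYGB+. All CYGB+ replicates lay above all NCE replicates, by 1.25 ± 0.22 (SE, adjusted p = 0.018). In the red channel, flagged spots included, this probe read 12.44, 9.89 and 10.18 on the first arrays of NCE replicates 1, 2 and 3. It read 8.35 to 8.87 in red on the other NCE arrays. Its normalized green signal lay at 8.57 to 8.90 on all 9 NCE arrays. The source of the red signal was not tested. The second LAMA1 probe was above background on 2 of 9 NCE arrays and 6 of 6 CYGB+ arrays, so its NCE mean of 5.06, against 6.56 in CYGB+, is mostly background. The rise of the first probe was 1.05 ± 0.31 with the slide as a block (adjusted p = 0.093) and 1.09 within the second slide, and its adjusted p was 0.064, 0.075 and 0.072 without NCE replicate 1, 2 and 3 (9.7e-05 to 0.093 over the alternatives). The median difference over the 3 chains was -0.26, and over all genes tested it was -0.0037.

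Receptors of laminin and nephronectin gave 1 fall and no rise among 12 tested of 13. Over all genes tested 8.93% passed, so 1 of 12 is near that share. ITGB6, the beta chain of an integrin induced in activated epithelium, fell by 1.13 on the log2 scale, from 7.41 to 6.28 (SE 0.27, adjusted p = 0.045). It no longer passed with any one of the 6 replicates left out (adjusted p from 0.057 to 0.16) or with the slide as a block (-0.90 ± 0.38, adjusted p = 0.31), and its adjusted p was 0.0013 to 0.31 over the alternatives. With normexp it was -0.48 ± 0.12. ITGB4, the beta chain of the hemidesmosomal integrin that binds the LAMA3 chain, read 14.31 in NCE and 13.51 in CYGB+ (adjusted p = 0.065), and passed with a replicate block (adjusted p = 0.046). ITGA2, a collagen and laminin receptor chain, differed by -0.92 ± 0.38 (adjusted p = 0.18) and passed with a replicate block (adjusted p = 0.033). With the slide as a block, neither passed (adjusted p = 0.91 for ITGB4 and 0.56 for ITGA2, the highest over the alternatives, of which the lowest were 0.024 and 0.023). BCAM, a laminin receptor, had the largest difference of the tested receptors, upward by 1.27 ± 0.48 (adjusted p = 0.14), and was above background on 2 of 9 NCE and 6 of 6 CYGB+ arrays. ITGA8, the nephronectin receptor chain, was above background on no array, and its partner ITGB1 differed by -0.13 ± 0.20 (adjusted p = 0.72). The median difference over the 12 receptor genes was -0.28.

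Network collagens and other basement membrane components gave 4 rises and 2 falls among 16 tested of 25, with a median difference of 0.00. The share over all genes tested was 4.37% higher and 4.56% lower. COL4A6 and COL4A5, the paired collagen IV chains of epithelial basement membranes, read 2.83 and 4.15 in NCE and 11.21 and 10.99 in CYGB+. COL4A6 was above background on no NCE array and on all 6 CYGB+ arrays, and by the rule used for NPNT was at least 94.6-fold higher in CYGB+. It passed the filter through its CYGB+ arrays alone, and in the fit of all probes with no filter its adjusted p was 4.2e-05 (3.0e-11 to 0.0040 over the alternatives). COL4A5 was above background on all 6 CYGB+ arrays and on 3 of 9 NCE arrays, the first array of each replicate, which read 7.48 to 8.08 against 2.34 to 2.38 on the other 6, the same 3 arrays as for NPNT. In the red channel those 3 arrays read 10.79 to 11.05 and the other 6 read 1.77 to 2.42. With NCE arrays below background set no lower than the lowest signal called well above it, COL4A5 was at least 40.0-fold higher in CYGB+. Its measured difference, mostly against background, was 6.85 ± 0.16 (limma, adjusted p = 4.0e-06). Averaging the arrays of a replicate hides the split, and single arrays fitted without the slide gave 6.85 ± 1.31 (limma, adjusted p = 0.0015). With the slide as a block it was 8.91 ± 2.33 (adjusted p = 0.057, the highest over the alternatives, the lowest being 8.0e-07). Within the second slide, whose NCE array was not above background, the COL4A5 difference was 8.62. Its CYGB+ arrays alone were enough to pass the filter, and with no filter its adjusted p was 7.8e-05. With normexp COL4A6 and COL4A5 differed by 4.15 ± 0.11 and 3.60 ± 0.09 (limma, adjusted p = 1.6e-05 for both). The bounds of both genes hold for the normalized processed signal only, and not for normexp, whose offset raises dim signals. COL4A1 and COL4A2, the collagen IV chains of nearly all basement membranes, differed by -0.35 ± 0.19 and -0.27 ± 0.16 and did not pass (adjusted p = 0.29 and 0.34).

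NTN1, netrin, a laminin-related guidance protein, rose by 2.01 ± 0.24 (adjusted p = 0.0062), and by 1.04 ± 0.45 with the slide as a block (adjusted p = 0.31, against 0.00018 to 0.31 over the alternatives) and 1.06 within the second slide. With normexp it rose by 1.04 ± 0.15. SPARC, a collagen-binding matricellular protein, rose by 1.87 ± 0.16 (adjusted p = 0.0025), and is named as the remaining rise of the list after its value was seen. COL18A1, the proteoglycan collagen that yields endostatin, fell by 1.19 on the log2 scale (SE 0.21, adjusted p = 0.018), and its adjusted p was 0.066, 0.077, 0.052 and 0.052 without NCE replicate 1, NCE replicate 3, CYGB+ replicate 2 and CYGB+ replicate 3 (0.0011 to 0.077 over the alternatives). With the slide as a block its difference was -1.79 ± 0.35 (adjusted p = 0.013) and within the second slide -1.80. FBLN1, fibulin, which binds laminin and nidogen, fell by 0.64 on the log2 scale by the brightest of its 3 probes (SE 0.15, adjusted p = 0.041). Its other 2 probes differed by -0.15 and -0.16 and did not pass, and the call was lost with a replicate block (adjusted p = 0.050) and with any one replicate left out (adjusted p from 0.058 to 0.17, and 0.00028 to 0.17 over all alternatives).

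The hemidesmosome and anchoring fibril genes, to which the laminin of the LAMA3 chain binds, gave no call among 6 tested of 6 (limma) and by the methods' t-test, and 1, ITGB4, at an unadjusted limma p under 0.05. Over all genes tested 8.93% passed, so no call among 6 is near that share and says little about these genes. ITGB4 passed under some alternatives, which are listed at the end. COL17A1 differed by 0.02 ± 0.20, COL7A1 by 0.16 ± 0.25, DST by -0.29 ± 0.18 and CD151 by -0.27 ± 0.15. PLEC was read differently by its 2 probes, at -0.03 ± 0.52 and -1.03 ± 0.48, neither of which passed.

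Enzymes that process laminin, perlecan and their sugar chains gave 1 rise and 3 falls among 13 tested of 18, with a median difference of -0.17. The share over all genes tested was 4.37% higher and 4.56% lower. HTRA1, a secreted serine protease, rose by 2.69 ± 0.22 (adjusted p = 0.0021). MMP7, the matrix metalloproteinase matrilysin, fell by 2.43 on the log2 scale from 9.02 to 6.58 (SE 0.28, adjusted p = 0.0055). MMP14, a membrane-bound metalloproteinase, fell by 1.48 (SE 0.19, adjusted p = 0.0073). With the slide as a block these 3 differences were 2.63 ± 0.32, -2.57 ± 0.47 and -1.47 ± 0.27, and all passed. With normexp the MMP7 difference was -1.52 ± 0.17. SULF2, which removes sulfate from the heparan sulfate chains that perlecan carries, fell by 0.71 (SE 0.14, adjusted p = 0.028), and its call was lost with the slide as a block (adjusted p = 0.11) and with any one NCE replicate, CYGB+ replicate 2 or CYGB+ replicate 3 left out (adjusted p from 0.063 to 0.13, and 7.9e-05 to 0.13 over all alternatives). BMP1, a procollagen-processing protease, differed by 0.16 ± 0.16 (adjusted p = 0.57).

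**Figure D4:**
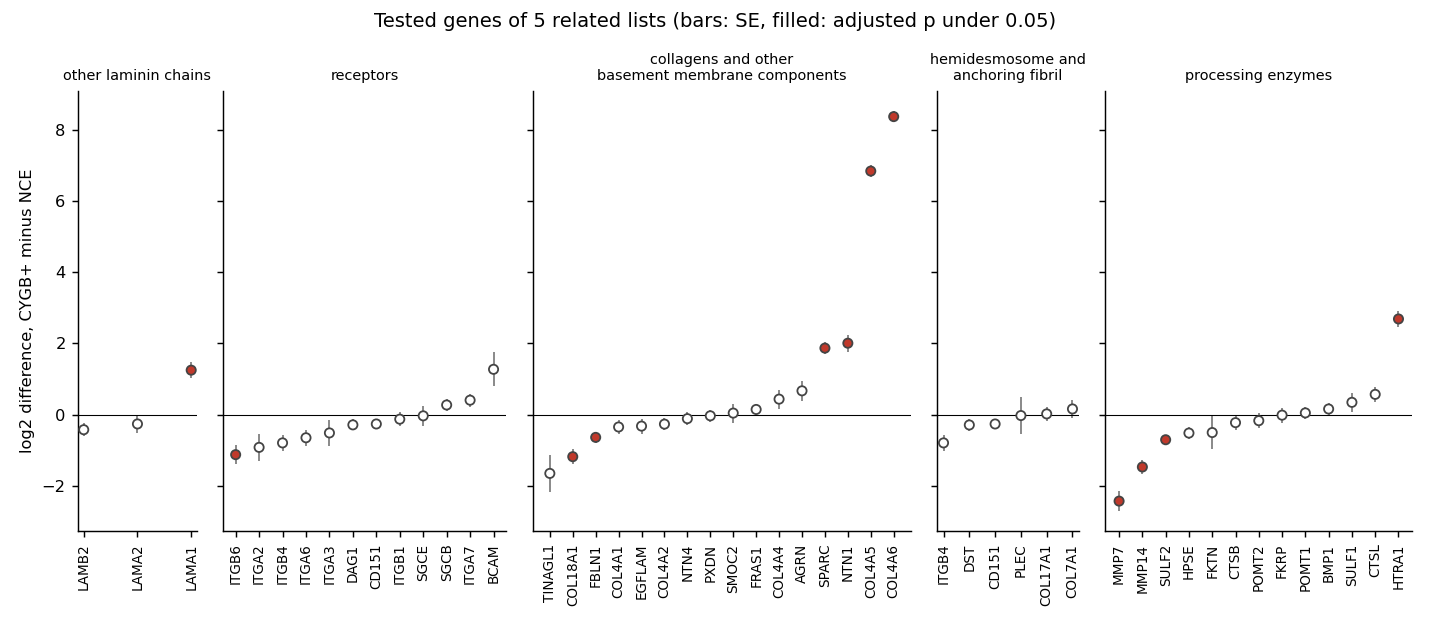
Log2 difference, CYGB+ minus NCE, with SE bars for the tested genes of 5 lists (other laminin chains, receptors, collagens and other basement membrane components, hemidesmosome and anchoring fibril, processing enzymes). Filled points had an adjusted p under 0.05, among them COL4A6 at 8.38, COL4A5 at 6.85, HTRA1 at 2.69 and MMP7 at -2.43.

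Patterns most like 2 of the members were sought over the 15 arrays, which share slides and extracts, so correlations are a description. For NPNT, the member with the largest difference, the 3 named genes with the highest Pearson r were SELPLG (0.98), GSTM3 (0.98) and COL4A6 (0.98). Most of the spread of NPNT over the arrays is its group difference. A high r with NPNT therefore mainly reflects a gene's own group difference and cannot show shared variation within a group. SELPLG, a selectin ligand, read 5.45 in NCE and 7.46 in CYGB+, and GSTM3, a glutathione transferase, 4.28 and 8.77. The lowest signals called well above background were 3.74 to 4.96, so the NCE mean of GSTM3 is near background. For LAMB3, the member with the highest signal, they were NIPSNAP3A (0.89), the mitochondrial protease gene CLPP (0.86) and the readthrough gene PPAN-P2RY11 (0.85). PPAN-P2RY11 read 4.90 in NCE and 5.10 in CYGB+, also near background.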

How the data were processed

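Total RNA of 3 NCE and 3 CYGB+ biological replicates was labelled and hybridised to 15 Agilent human expression arrays. The members and lists were chosen with earlier results of these data known. Per the file headers, the deposited scanner intensities come from Agilent Feature Extraction 10.7.3.1 under a 2-colour protocol, with the background subtracted and the dyes normalized. The deposited value table holds, by comparison with the scanner values, natural log values (slope 0.68 per log2 unit, where a natural log gives 0.69) centred near the CYGB+ medians, with column medians from -0.16 to 0.18. Its direction followed the green channel. What else the authors did to it is not given in the sources used here.

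Control spots and spots flagged as outliers were left out, spots of 1 probe were averaged on the log2 scale, the green processed signal was quantile-normalized over 42405 probes, and arrays were averaged per biological replicate. Probes well above background on at least 6 of 15 arrays (22142) were tested with limma 3.58.1 in R 4.3.3 (lmFit, eBayes, two-sided, Benjamini-Hochberg, adjusted p under 0.05) and 1807 passed. Only the limma fit was tested on simulated data, as replicate values with known differences. The normalization, averaging, filter and slides were not part of that test. Symbols come from RefSeq accessions, which matched 25422 of 27310 probes with such an accession. A gene with several probes is represented by the brightest. One gene of the lists is not reported here. Named are all members, CYGB, of each list the called genes with the 3 largest differences in each direction, and the 3 genes most correlated with each of 2 members. Other genes of the lists are named for their role or after their values were seen.

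Same-numbered replicates deviated together over probes (correlations 0.22, 0.28 and 0.31), while differently numbered pairs ranged from -0.50 to 0.23. NCE 2 with CYGB+ 3, at 0.23, lay above the lowest same-numbered pair, so the pairing is not clear-cut. The labels give 3 extraction occasions, so a fit with the replicate as a block is given where it changed a call. The slide block used single arrays with the biological replicate as a random block. Other alternatives were 75th percentile scaling, normexp, other filters, the methods' t-test, the value table and leaving out replicates or arrays. Normexp was run on the median spot signal in place of the mean, which was not used here. The number of arrays limits the precision.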

Additional observations from a re-analysis of the deposited data

Results flagged for a closer look

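In 18 sets of arrays of 1 group and 1 probe (the measured members, LAMA1 and CYGB), 2 single arrays lay far from the others of their group, where chance gives about 1 set in 20. LAMA5 read 8.93 on the second array of NCE replicate 3 and 9.72 to 10.12 on the other 8 NCE arrays. LAMB3 read 16.66 on the first array of CYGB+ replicate 1 and 17.10 to 17.35 on the other 5 CYGB+ arrays, and this is the array that stood apart over all probes.

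A signal for NPNT was present in the red channel, which no comparison above uses. On the first array of NCE replicates 1, 2 and 3 the red log2 signal was 8.88, 8.51 and 8.77, against 2.04 to 3.57 on the other 6 NCE arrays. Its source was not tested.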

How the results depend on the processing

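Over all probes, 1807 passed. The count was 1196 with no filter, 631 by the methods' t-test, 643 with the slide as a block, 4704 for the same array-level fit without the slide, 3654 without the first array of CYGB+ replicate 1, and 354 to 1628 with 1 replicate left out. With a replicate block it was 2556, of which 1708 were among the 1807. The t-test count used averaged replicates with the filter and normalization given here, so it is not the study's own count, which was far larger. Of 139 member values under alternatives, 128 moved by less than the replicate SD, and the 11 others included NPNT (2.23 with normexp) and HSPG2 (-0.01 over 4 probes). The 128 include settings that left every member difference at its main value by design. These were the other filters, the methods' t-test, the replicate block and the array-level fit without the slide. The count is therefore no measure of robustness.

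Other laminin chains gave 1 call, and 0 by the methods' t-test, with the slide as a block, with outlier spots kept and with any one NCE replicate left out (range 0 to 1 with 1 replicate left out). It was also 0 in the value table, which does not hold the LAMA1 probe. Receptors gave 1, but 0 with 75th percentile scaling, no filter, the methods' t-test, the slide as a block, outlier spots kept, without the first NCE arrays and with 1 replicate left out (0 to 0). They gave 2 with normexp, with the filter on all 15 arrays, in the value table and without the first array of CYGB+ replicate 1, 3 with the replicate block and 5 at array level. Basement membrane components gave 6, and 1 (TINAGL1) in the value table, which holds FBLN1 (adjusted p 0.15) but not the probes of the other 5, nor those of NPNT and MMP7. The methods' t-test also lost NTN1, COL18A1 and MMP7 (adjusted p 0.052, 0.077 and 0.053). Hemidesmosome genes gave 0, and 1 (ITGB4) with normexp, all 15 arrays, the replicate block, array level, the value table and without the first array of CYGB+ replicate 1. Processing enzymes gave 4, and 3 to 6 elsewhere. Beside ITGB4, ITGA2 and FBLN1, the replicate block changed only the call of TINAGL1 (now lower) among these lists. The settings on outlier spots, single arrays, array level and the median signal were chosen after the data were seen. Signals near background (the nidogens, and NPNT, COL4A5 and COL4A6 in NCE) give bounds only, and the slide and group overlap through a single NCE array.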
